A study of Mus musculus with 12 samples.

Results

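The genes described here are 10 bone genes read by symbol from 12 RNA libraries of mouse hind limb muscle, out of 22923 gene symbols listed. Of these, 8 belong to bone formation (Bglap, Bglap2, Ibsp, Sp7, Dmp1, Phex, Mepe and Alpl) and 2 to bone resorption (Ctsk and Acp5). The symbols were fixed as a list, and each was found once in every library. Values are FPKM (fragments per kilobase of transcript, scaled to the mapped fragments of the library), which are scaled for transcript length, so that levels of different genes can be set side by side.

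RNA was taken from proximal hind limb skeletal muscle of male FVB mice (FVB/N in the study's methods) at 22 weeks of age, with 3 libraries in each of 4 groups. WT mice, titled Flox, were littermates of KO mice, which lack both Cryab and Hspb2, neighbouring genes that encode small heat shock proteins. The deletion is not limited to a cell type. Mice of each genotype were kept on normal chow (titled control) or on a high fat diet, which allows the effect of diet in each genotype, of genotype on each diet, and the interaction to be compared.

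The genotype label disagreed with the title in 6 of the 12 samples. It calls the 3 WT high fat samples KO, and KO chow replicate 3 and KO high fat replicates 1 and 2 wild type. Cryab lay between 412 and 837 FPKM in the libraries titled WT and between 0.845 and 1.75 FPKM in those titled KO. Hspb2 lay between 81.5 and 103.0 FPKM and between 0.353 and 1.92 FPKM, respectively. Groups follow the titles throughout, and regrouping by the label turned the direction of most genotype differences given below.

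Several libraries stood apart in ways that bear on the bone genes. WT high fat replicate 3 held most of the RNA listed for 5 bone-forming genes, WT high fat replicate 1 had the highest sum of marrow granulocyte genes, and WT high fat replicate 2 had the highest sum of skin and hair genes. The tissue was skeletal muscle by its markers, since a list of 10 muscle genes summed to between 63000 and 110100 FPKM per library. Acta1, the main actin of skeletal muscle, was nevertheless listed at 0 in 2 libraries against a median of 29526 FPKM. Myh4, a fast myosin heavy chain and 1 of the 10 muscle genes, was listed at 0 in all 12 libraries. For this reason a 0 is given below as a listed value and not as absence of the RNA. FPKM does not keep the number of reads, so the depth behind each value is unknown.

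Osteoblasts build bone by laying down a collagen matrix and then mineralizing it, and those that become buried in it are osteocytes. Osteoclasts are large cells that fuse from precursors of the monocyte lineage, and they dissolve mineral with acid and matrix with proteases. Sp7 (osterix) is the transcription factor that commits cells to the osteoblast lineage, Alpl is the phosphatase that clears the mineralization inhibitor pyrophosphate, and Ibsp (bone sialoprotein) and the osteocalcins Bglap and Bglap2 are matrix proteins of mineralizing osteoblasts. Dmp1, Mepe and Phex are products of osteocytes that govern mineral and phosphate handling. Ctsk (cathepsin K) cleaves bone collagen, and Acp5 is tartrate-resistant acid phosphatase, the enzyme by which osteoclasts are stained. Alpl, Ctsk and Acp5 are also made by other cells, macrophages among them for Ctsk and Acp5.

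The 10 genes fell into 3 ranges of level. Alpl, Ctsk and Acp5 were above 1 FPKM in all 12 libraries. Dmp1 and Phex were above 0 in all 12 libraries but low, with 7 libraries at 1 FPKM or more for Dmp1 and none for Phex. Bglap, Bglap2, Ibsp, Sp7 and Mepe were listed at 0 in 6 to 10 libraries and were highest in WT high fat replicate 3.

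**Figure D1:**
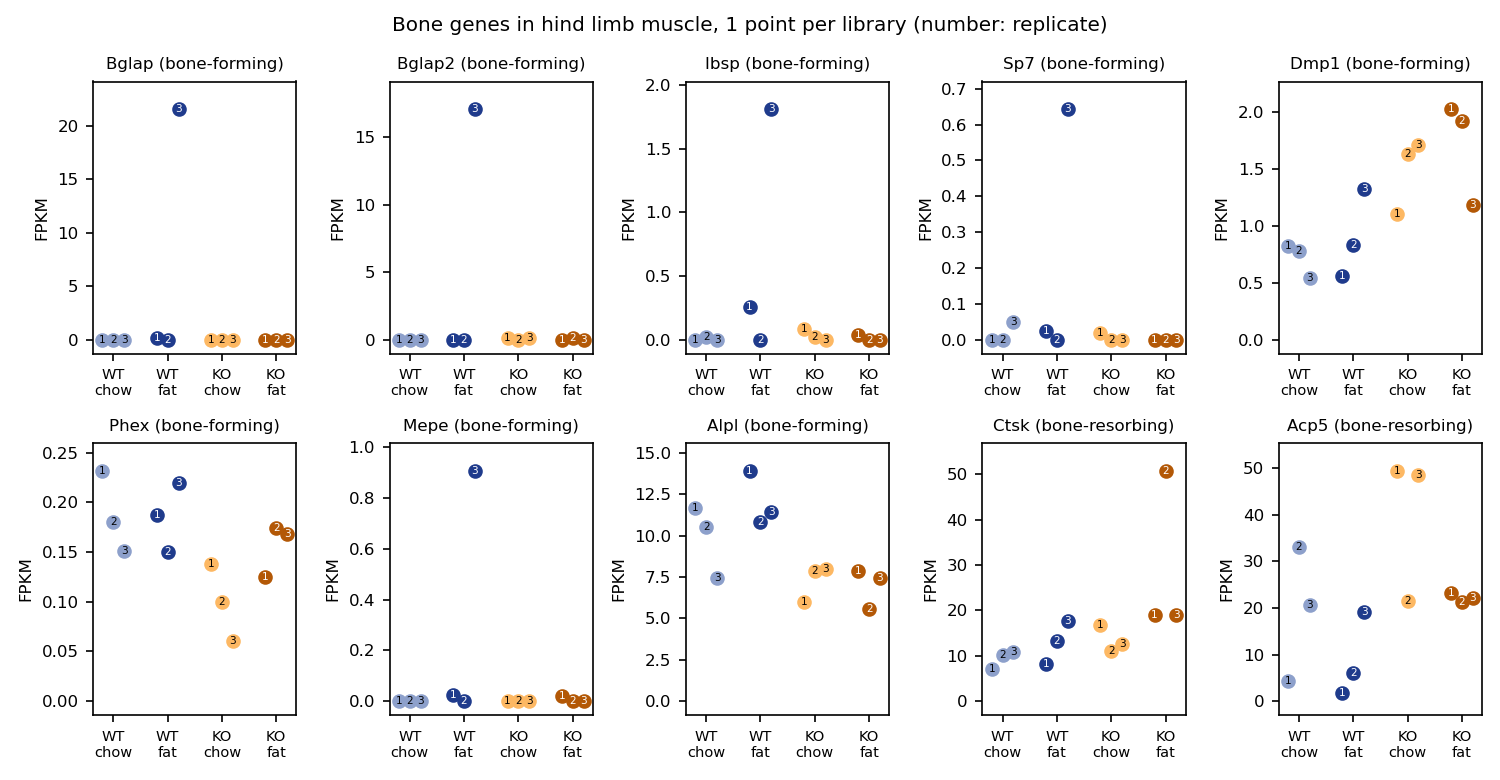
FPKM of each of the 10 bone genes in each library (vertical axis, own linear scale per gene), by group (horizontal axis), with each point numbered by replicate. WT high fat replicate 3 stands alone for Bglap, Bglap2, Ibsp, Sp7 and Mepe, whereas Dmp1, Phex, Alpl, Ctsk and Acp5 spread over all groups.

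Bglap was listed at 21.5 FPKM in WT high fat replicate 3, at 0.151 FPKM in WT high fat replicate 1, and at 0 in WT high fat replicate 2 and in the 9 libraries of the other groups. Bglap2 was listed at 17.1 FPKM in WT high fat replicate 3, at 0.121 FPKM in both KO chow replicates 1 and 3 and at 0.134 FPKM in KO high fat replicate 2, and at 0 in the remaining 8 libraries. WT high fat replicate 3 thus held 99.3% of the Bglap signal and 97.9% of the Bglap2 signal summed over the 12 libraries. The remaining WT high fat libraries did not share this level, so the value belongs to that library and not to the group. In bulk tissue, more cells of a type and more RNA per cell cannot be told apart.

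Bglap and Bglap2 are near-identical copies. In the GENCODE M21 annotation of GRCm38 (mm10), Bglap lies at chr3:88383501-88384464 and Bglap2 at chr3:88377736-88378699, both on the minus strand with 4 exons and 4801 bp apart. Their coding sequences have 288 bases each and differ at 4, an identity of 98.6% with an identical stretch of 241 bases. They are shown, 5′ to 3′ with the differing bases in capitals, because a read from the shared stretch can come from either gene and the split between the copies is uncertain.
Bglap: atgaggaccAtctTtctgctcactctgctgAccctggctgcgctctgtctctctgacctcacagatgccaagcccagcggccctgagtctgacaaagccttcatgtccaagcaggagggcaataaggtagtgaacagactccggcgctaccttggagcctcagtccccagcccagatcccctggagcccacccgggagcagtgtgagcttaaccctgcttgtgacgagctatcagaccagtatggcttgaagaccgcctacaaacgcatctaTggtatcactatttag
Bglap2: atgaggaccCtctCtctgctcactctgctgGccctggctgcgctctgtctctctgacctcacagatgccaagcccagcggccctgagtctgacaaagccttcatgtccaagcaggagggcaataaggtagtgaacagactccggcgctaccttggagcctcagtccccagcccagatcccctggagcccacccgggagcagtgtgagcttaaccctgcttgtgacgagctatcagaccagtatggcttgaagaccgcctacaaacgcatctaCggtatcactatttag

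Ibsp was listed at 1.81 FPKM in WT high fat replicate 3, at 0.258 FPKM in WT high fat replicate 1 and at 0 in WT high fat replicate 2. In the other groups it reached 0.0198 FPKM in WT chow (replicate 2, with 0 in replicates 1 and 3), 0.0833, 0.0218 and 0 FPKM in KO chow, and 0.0370, 0 and 0 FPKM in KO high fat. WT high fat replicate 3 held 81.2% of its signal, and the next library, WT high fat replicate 1, was also above every library outside its group.

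Sp7 was listed at 0.643 FPKM in WT high fat replicate 3, at 0.0253 FPKM in WT high fat replicate 1, at 0.0482 FPKM in WT chow replicate 3 and at 0.0193 FPKM in KO chow replicate 1, with 0 in the other 8 libraries. Mepe was listed at 0.908 FPKM in WT high fat replicate 3, at 0.0258 FPKM in WT high fat replicate 1 and at 0.0222 FPKM in KO high fat replicate 1, with 0 in the other 9 libraries. This lineage factor of osteoblasts and this osteocyte product stayed under 1 FPKM everywhere, and 87.4% and 94.98% of their signal lay in WT high fat replicate 3.

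**Figure D2:**
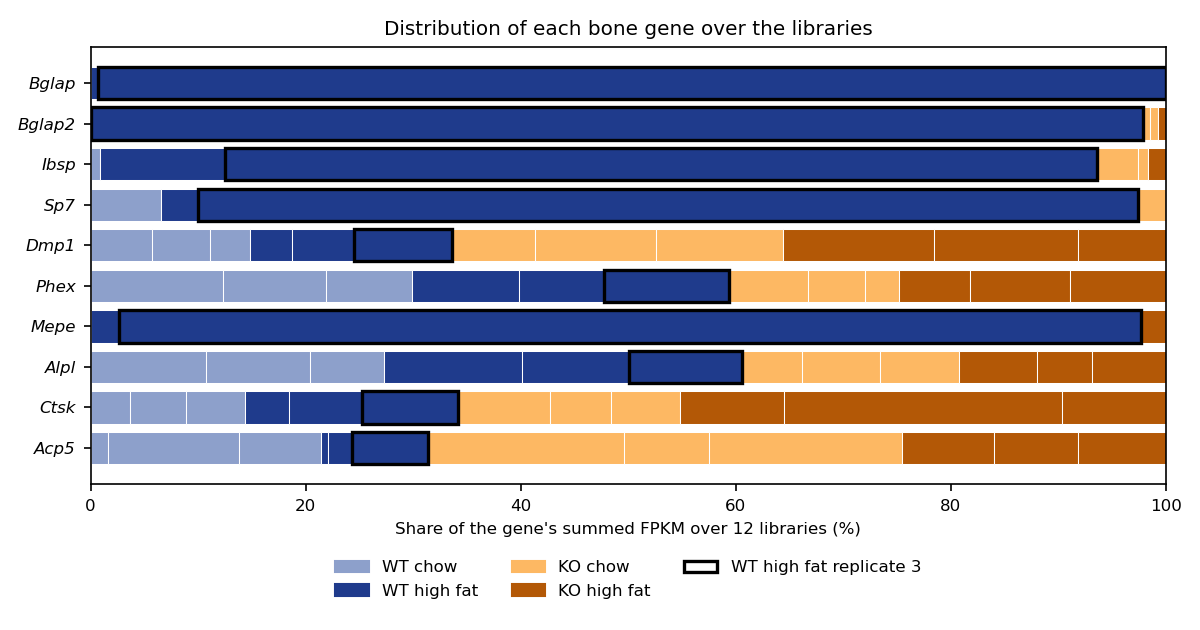
Share of each bone gene's FPKM, summed over the 12 libraries, that each library holds (horizontal axis, percent), with 1 bar per gene, segments coloured by group and WT high fat replicate 3 outlined. The outlined segment takes 99.3% of Bglap, 97.9% of Bglap2, 94.98% of Mepe, 87.4% of Sp7 and 81.2% of Ibsp, but 7.06% to 11.7% of Dmp1, Phex, Alpl, Ctsk and Acp5.

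Not every bone gene was highest in WT high fat replicate 3. Dmp1 and Phex, which osteocytes share with Mepe, held 9.16% and 11.7% of their signal there. For both, another library was highest, and Alpl was highest in WT high fat replicate 1. The genes with at least 90% of their signal and at least 0.5 FPKM in this library were 6 in number, and besides Bglap, Bglap2 and Mepe they were Sost (1.16 FPKM, at most 0.0231 FPKM elsewhere), Tnn (3.41 FPKM, at most 0.0367 FPKM elsewhere) and Snord22 (19.9 FPKM, listed at 0 elsewhere), a group chosen after the values were seen. Sost encodes sclerostin, a secreted product of osteocytes that restrains bone formation, and Tnn encodes tenascin-W, an extracellular matrix protein. The same count was 69 in WT high fat replicate 2 and 0 to 5 in the other 10 libraries.

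A list of 37 further osteoblast and osteocyte genes, of which 36 were in the files, was read in the same library. Of the 36, 13 were highest in WT high fat replicate 3, and 3 (Dlx5, Sost and Dkk1) had more than 50% of their signal there. Some led by little, such as Lrp5 (10.3 FPKM, and 9.67 FPKM in WT high fat replicate 1). The share of all genes with these traits in this library is not given, so the counts are description only. Spp1, which encodes the mineral-binding matrix protein osteopontin, was listed at 14.3 FPKM in WT high fat replicate 3 and between 1.83 and 5.32 FPKM in the other 11 libraries. Runx2, the transcription factor upstream of Sp7, was 0.736 FPKM there and between 0.255 and 0.603 FPKM elsewhere, a much narrower gap. Spp1 and Runx2 were singled out after their values were seen.

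Markers of other cells differed between the same libraries. A list of 14 marrow granulocyte genes summed to 1235 FPKM in WT high fat replicate 1, 132.9 FPKM in replicate 2 and 478.5 FPKM in replicate 3, against 3.10 to 141.3 FPKM in the other groups. The tendon list (6 genes) summed to between 248.7 and 420.6 FPKM in WT high fat and to between 37.4 and 179.9 FPKM in the other groups, and the chondrocyte list (17 of 18 genes in the files) to between 38.7 and 83.4 FPKM against 3.67 to 27.0 FPKM. In WT high fat, Chad and Comp made up 85.4% to 92.6% of the chondrocyte sum, and Chad is on the tendon list as well, so the 2 sums are not separate. The cartilage collagen Col2a1 reached 0.673 FPKM at most, in WT high fat replicate 3. The erythroid list (6 of 12 genes in the files) summed to between 10.7 and 26.8 FPKM in WT high fat and to between 2.55 and 12.5 FPKM elsewhere. The skin and hair list (100 genes) reached 158.9 FPKM in WT high fat replicate 2 and at most 18.5 FPKM in the remaining libraries.

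The order of the 3 WT high fat libraries therefore differed between these lists and the bone genes. WT high fat replicate 3, highest for 5 bone genes, was second for the marrow, tendon, chondrocyte and erythroid lists. Within the chondrocyte list, 2 genes (Acan and Hapln1) had more than 50% of their signal in replicate 3. The part of other tissue in the bone gene values was not tested.

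**Figure D3:**
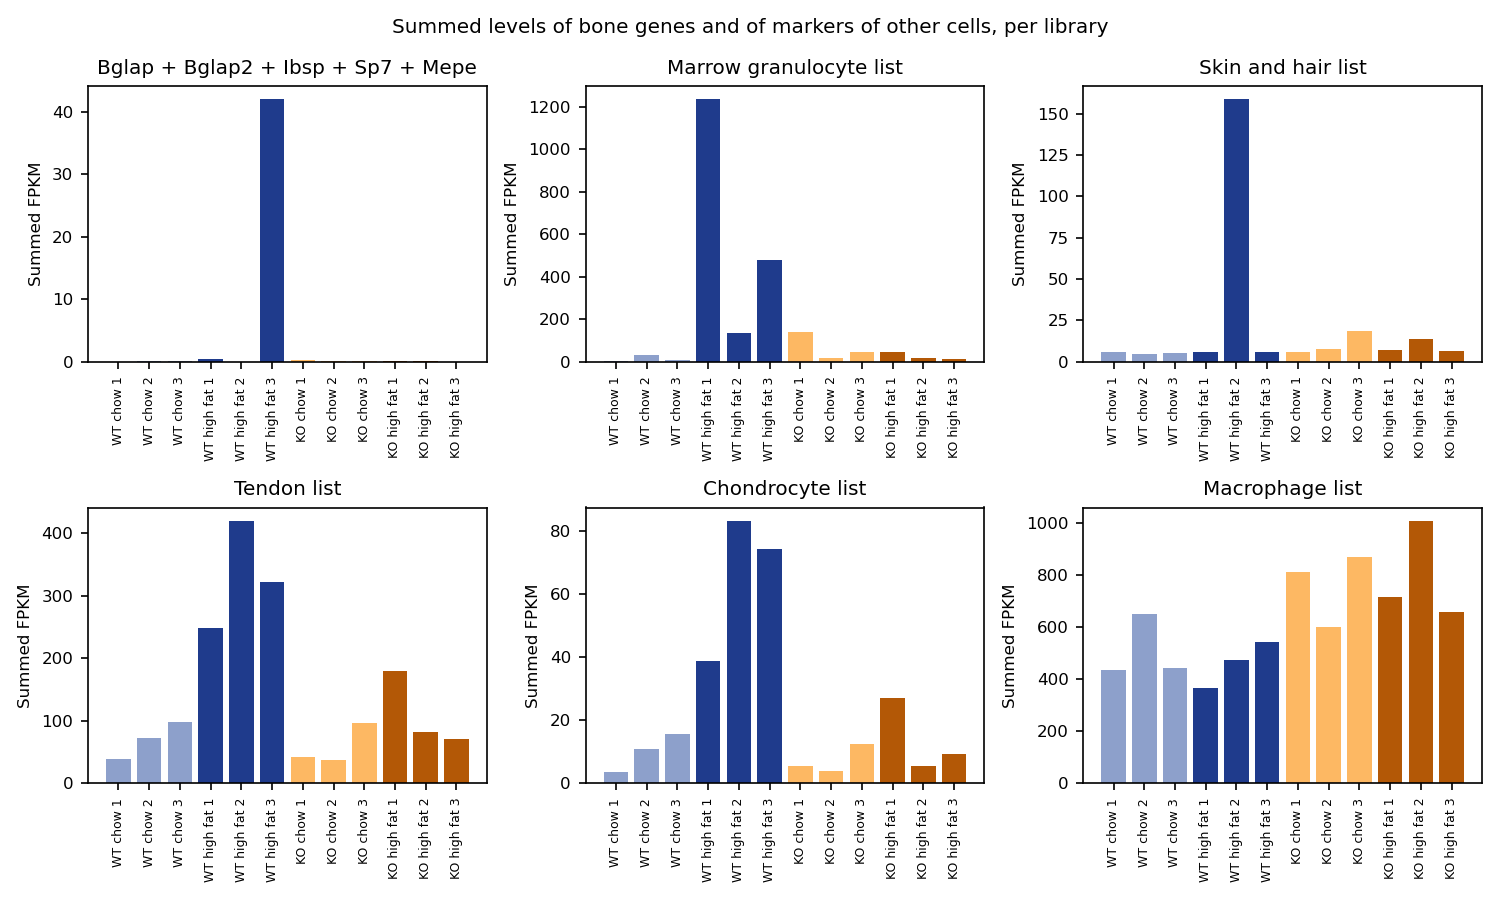
Summed FPKM per library (vertical axis, linear, own scale per panel) of the 5 low bone genes and of lists of marrow granulocyte, skin and hair, tendon, chondrocyte and macrophage genes, with 1 bar per library coloured by group. The bone gene sum stands out in WT high fat replicate 3 (42.0 FPKM, at most 0.461 FPKM elsewhere), the marrow sum in replicate 1 (1235 FPKM) and the skin and hair sum in replicate 2 (158.9 FPKM).

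Ibsp, Dmp1 and Mepe lie next to each other on the plus strand of chromosome 5, Dmp1 at chr5:104202613-104214102, Ibsp at chr5:104299171-104311469 and Mepe at chr5:104325329-104338611 (GRCm38). Dmp1 and Ibsp are 85068 bp apart, and Ibsp and Mepe 13859 bp. These neighbours did not share a pattern over the libraries, since Ibsp and Mepe were highest in WT high fat replicate 3 and Dmp1 in KO high fat replicate 1. The other genes lie apart, Sp7 at chr15:102356606-102367182, Phex at chrX:157162075-157415312, Alpl at chr4:137741733-137796384 and Acp5 at chr9:22126727-22135711, all on the minus strand, and Ctsk at chr3:95499256-95509362 on the plus strand.

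Of the 10 bone genes, 8 have a promoter in the RefSeq set for GRCm38.p6, and the 250 bases before the start were searched for the core of the RUNX site (ACCACA on either strand) and a TATA box (TATAAA on the gene strand). Bglap, Mepe and Dmp1 held the RUNX core, which was present in 14.0% of all 32851 promoters, and Bglap held the TATA box, present in 7.59%. These shares count each start separately, whereas Acp5 has 3 starts and Alpl and Dmp1 have 2 each. The count of genes and the shares are therefore not on the same footing. The promoters of Bglap (chr3:88384467-88384716, minus strand) and Mepe (chr5:104325079-104325328, plus strand) are shown 5′ to 3′ with the matches in capitals, because both genes had over 90% of their signal in WT high fat replicate 3 and lie on different chromosomes. In Bglap the RUNX core starts 132 bases and the TATA box 27 bases before the start, and in Mepe the RUNX core starts 118 bases before it, with a match on the other strand at 80 bases. The match in Dmp1 lies 164 bases before 1 of its 2 starts. These matches describe the letters and do not show binding.
Bglap promoter: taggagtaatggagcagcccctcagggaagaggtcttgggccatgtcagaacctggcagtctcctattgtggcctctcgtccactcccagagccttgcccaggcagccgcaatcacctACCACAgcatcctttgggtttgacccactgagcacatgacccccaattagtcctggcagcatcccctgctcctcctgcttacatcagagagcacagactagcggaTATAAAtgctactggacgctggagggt
Mepe promoter: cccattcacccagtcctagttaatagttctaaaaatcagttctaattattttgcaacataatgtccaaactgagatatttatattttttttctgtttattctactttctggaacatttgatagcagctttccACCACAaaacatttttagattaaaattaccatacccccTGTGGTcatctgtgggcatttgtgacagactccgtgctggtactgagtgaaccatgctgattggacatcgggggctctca

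For comparisons between groups, genes with at least 1 FPKM in at least 3 libraries were tested on the log2(FPKM + 1) scale, a scale that understates changes of low genes. This kept 11945 genes, and of the bone genes it kept Dmp1, Alpl, Ctsk and Acp5. Bglap, Bglap2, Ibsp, Sp7, Phex and Mepe did not reach the filter. Dmp1 reached it through the KO groups, with 6 KO libraries and 1 WT library at 1 FPKM or more, so a higher level in KO was a condition of its being tested. Without the filter, the lowest adjusted p of these 6 in any comparison was 0.161, for Phex in the genotype effect averaged over the diets (limma, Benjamini-Hochberg).

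None of the 4 tested bone genes passed the adjusted threshold of 0.05 in any of the 6 comparisons by limma. This has to be read against how few genes passed at all. Among all tested genes, 12 (0.1%) passed for diet in WT mice, none (0%) for diet in KO mice, 7 (0.0586%) for genotype on normal chow, 13 (0.109%) for genotype on high fat diet and none (0%) for the interaction. The genotype effect averaged over the diets, 6 KO against 6 WT libraries, was added after the data were seen and called 103 genes (0.862%).

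Before adjustment, bone genes with p under 0.05 numbered 0 of 4 for diet in WT mice, against 8.12% of all tested genes, and 1 of 4 (Ctsk) for diet in KO mice, against 11.3%. For genotype they numbered 2 of 4 (Dmp1 and Alpl) on normal chow, against 16.7% of all genes, and 4 of 4 on high fat diet, against 16.2%. The interaction gave 0 of 4, against 6.25%, and the averaged genotype effect 4 of 4, against 26.5%. Dmp1 is in each genotype count and, for the reason given, adds no support to it. The share of all tested genes whose groups do not overlap is not given. Where groups are said below not to overlap, this is therefore description only.

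Dmp1 was 0.820, 0.782 and 0.542 FPKM in WT chow replicates 1 to 3, and 0.560, 0.830 and 1.32 FPKM in WT high fat. In KO chow it was 1.11, 1.63 and 1.71 FPKM, and in KO high fat 2.03, 1.92 and 1.19 FPKM. All KO chow libraries lay above all WT chow libraries, whereas on high fat diet KO replicate 3 lay below WT replicate 3.

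The Dmp1 mean was 0.809 ± 0.282 FPKM in WT (SD, n = 6) and 1.597 ± 0.378 FPKM in KO (SD, n = 6). The fitted difference, KO minus WT, was 0.53 on the log2 scale on normal chow (SE 0.18, 95% confidence interval 0.14 to 0.92, adjusted p = 0.277, limma) and 0.52 on high fat diet (SE 0.18, interval 0.12 to 0.91, adjusted p = 0.184). Averaged over the diets it was 0.52 (SE 0.13, adjusted p = 0.0606, and 0.0963 without the filter). It passed the threshold by limma without WT high fat replicate 3 (0.60, adjusted p = 0.0389). The same held without KO chow replicate 2 (0.50, adjusted p = 0.0483). A higher level in KO was a condition of testing Dmp1, so these passes add no support for a genotype difference. The diet differences were small in both genotypes, 0.14 in WT (interval -0.26 to 0.53) and 0.12 in KO (interval -0.27 to 0.51). Without WT high fat replicate 3 the diet difference in WT was -0.02.

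The levels of Alpl lay in the other direction between the genotypes, although it did not pass the adjusted threshold either. It was 11.7, 10.5 and 7.44 FPKM in WT chow, 13.9, 10.8 and 11.4 FPKM in WT high fat, 6.02, 7.84 and 8.002 FPKM in KO chow and 7.89, 5.59 and 7.42 FPKM in KO high fat. On high fat diet all KO libraries lay below all WT libraries, whereas on normal chow WT replicate 3 lay below KO replicates 2 and 3. The mean was 11.0 ± 2.11 FPKM in WT (SD, n = 6) and 7.13 ± 1.05 FPKM in KO (SD, n = 6).

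For Alpl the fitted difference, KO minus WT, was -0.38 on normal chow (SE 0.17, interval -0.76 to -0.00084, adjusted p = 0.300, limma) and -0.72 on high fat diet (SE 0.17, interval -1.10 to -0.34, adjusted p = 0.0929). The averaged genotype effect was -0.55 (SE 0.12, adjusted p = 0.0563). It passed the threshold without WT chow replicate 3 (-0.63, adjusted p = 0.0472), without WT high fat replicate 3 (-0.56, adjusted p = 0.0471) or without KO chow replicate 2 (-0.57, adjusted p = 0.0375). The diet difference was 0.28 in WT (interval -0.10 to 0.66) and -0.06 in KO (interval -0.44 to 0.32), and the interaction was -0.34 (adjusted p = 0.898).

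Phex, the endopeptidase whose loss causes phosphate wasting, was too low to be tested with the rest. It was 0.232, 0.180 and 0.151 FPKM in WT chow and 0.188, 0.150 and 0.220 FPKM in WT high fat. It was 0.138, 0.0994 and 0.0604 FPKM in KO chow and 0.125, 0.174 and 0.169 FPKM in KO high fat. The KO chow libraries lay below the WT chow libraries, with a fitted difference without the filter of -0.11 (unadjusted p = 0.0123, adjusted p = 0.343, limma), whereas on high fat diet the genotypes overlapped. Dmp1, Phex and Alpl thus did not share a direction, since the KO mean was above the WT mean for Dmp1 and below it for Phex and Alpl.

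**Figure D4:**
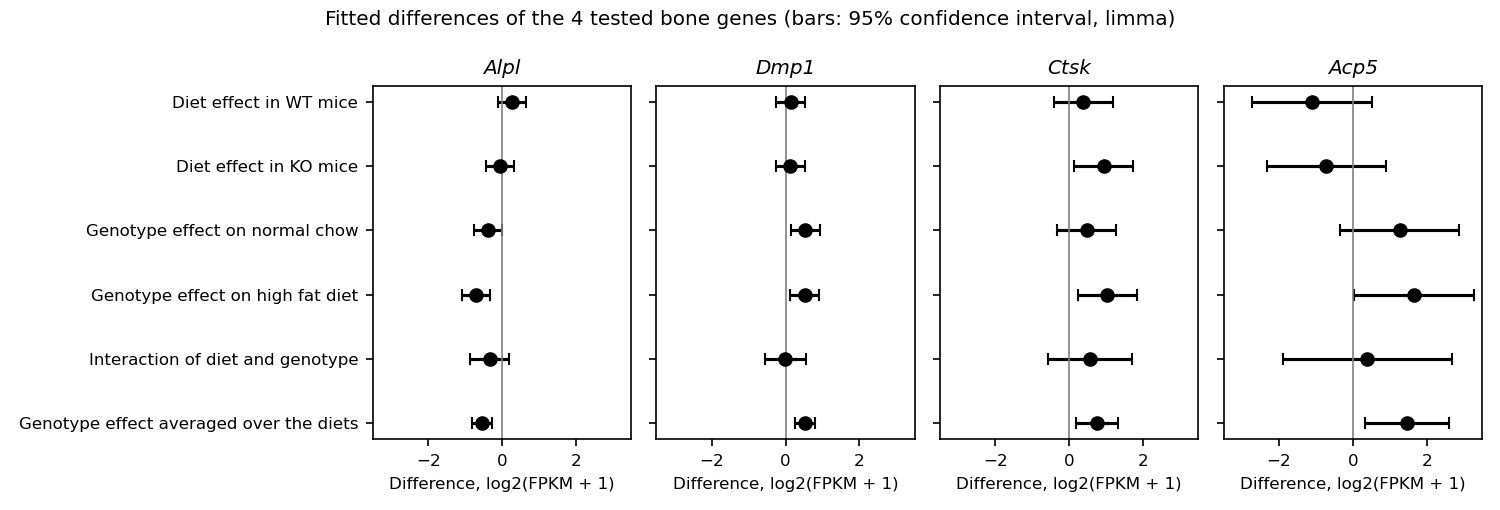
Fitted differences of Alpl, Dmp1, Ctsk and Acp5 on the log2(FPKM + 1) scale (horizontal axis) in 6 comparisons (vertical axis), where points are limma estimates and bars 95% confidence intervals. Genotype differences lie below 0 for Alpl and above 0 for Dmp1, Ctsk and Acp5, and the intervals of all 4 genes include 0 for diet in WT mice and for the interaction.

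Ctsk, the collagen-degrading protease, was 7.20, 10.3 and 10.8 FPKM in WT chow and 8.12, 13.3 and 17.6 FPKM in WT high fat. It was 16.9, 11.1 and 12.7 FPKM in KO chow and 19.1, 50.8 and 19.0 FPKM in KO high fat. KO libraries lay above WT libraries on each diet, and KO high fat libraries above KO chow libraries. The margins between the genotypes were small, 11.1 against 10.8 FPKM on normal chow and 19.0 against 17.6 FPKM on high fat diet. KO high fat replicate 2 was the highest by a wide margin.

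The fitted Ctsk difference, KO minus WT, was 0.48 on normal chow (SE 0.36, interval -0.32 to 1.28, adjusted p = 0.466, limma) and 1.03 on high fat diet (SE 0.36, interval 0.23 to 1.84, adjusted p = 0.191). High fat minus chow was 0.94 in KO (SE 0.36, interval 0.14 to 1.74, adjusted p = 0.431) and 0.38 in WT (SE 0.36, interval -0.42 to 1.18, adjusted p = 0.867), and the interaction was 0.56 (SE 0.51, adjusted p = 0.907). Without KO high fat replicate 2 the genotype difference on high fat diet was 0.58 and the diet difference in KO 0.48, so this library carried much of both. The averaged genotype effect was 0.76 (SE 0.26, adjusted p = 0.109).

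Acp5, the acid phosphatase, was 4.42, 33.0 and 20.6 FPKM in WT chow and 1.76, 6.12 and 19.2 FPKM in WT high fat. It was 49.4, 21.4 and 48.6 FPKM in KO chow and 23.2, 21.2 and 22.2 FPKM in KO high fat. Its spread was wide in every group but KO high fat, with a coefficient of variation of 74.1% in WT chow, 100.4% in WT high fat, 40.0% in KO chow and 4.65% in KO high fat. On high fat diet every KO library lay above every WT library, whereas on normal chow WT replicate 2 lay above KO replicate 2.

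The fitted Acp5 difference, KO minus WT, was 1.27 on normal chow (SE 0.73, interval -0.35 to 2.89, adjusted p = 0.369, limma) and 1.66 on high fat diet (SE 0.73, interval 0.04 to 3.28, adjusted p = 0.294). The averaged genotype effect was 1.47 (SE 0.52, adjusted p = 0.118). High fat minus chow was -1.11 in WT (interval -2.73 to 0.51) and -0.72 in KO (interval -2.34 to 0.89), opposite in sign to Ctsk, with adjusted p of 0.762 and 0.672. Single libraries moved these values, since the genotype difference was 0.50 on normal chow without WT chow replicate 1. On high fat diet it was 0.95 without WT high fat replicate 1, and the WT diet difference was then -0.40 and, without WT chow replicate 2, -0.56. The comparisons on the same diet or in the same genotype share their libraries and are not independent of each other.

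The bone-resorbing genes were compared with the bone-forming genes by summing FPKM within each set, as a description without a test. The bone-forming sum was 12.7, 11.5 and 8.18 FPKM in WT chow, 15.1, 11.8 and 54.9 FPKM in WT high fat, 7.49, 9.59 and 9.89 FPKM in KO chow and 10.1, 7.82 and 8.78 FPKM in KO high fat. The bone-resorbing sum was 11.6, 43.3 and 31.4 FPKM in WT chow, 9.88, 19.4 and 36.8 FPKM in WT high fat, 66.3, 32.5 and 61.3 FPKM in KO chow and 42.3, 72.0 and 41.2 FPKM in KO high fat. Alpl made up 71.5% to 92.0% of the bone-forming sum in 11 libraries and 20.8% in WT high fat replicate 3, so the sum is mostly Alpl everywhere else.

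The ratio of the bone-forming to the bone-resorbing sum was 1.10, 0.265 and 0.260 in WT chow and 1.53, 0.609 and 1.495 in WT high fat. It was 0.113, 0.295 and 0.162 in KO chow and 0.239, 0.109 and 0.213 in KO high fat. Bone-resorbing genes outweighed bone-forming genes in all 6 KO libraries and in 3 of the 6 WT libraries, and on high fat diet the genotypes did not overlap.

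The log2 ratio averaged -1.24 ± 1.18 in WT chow, 0.16 ± 0.75 in WT high fat, -2.50 ± 0.70 in KO chow and -2.49 ± 0.61 in KO high fat (SD, n = 3 each). KO minus WT was -1.26 on normal chow. On high fat diet it was -2.65, whereas high fat minus chow was 1.40 in WT and 0.01 in KO. Without WT high fat replicate 3 the difference on high fat diet was -2.44 and the diet difference in WT 1.19, so the ratio with Alpl did not rest on that library. The difference on normal chow was -0.58 without WT chow replicate 1, whose log2 ratio of 0.13 stood apart from -1.91 and -1.93 in the other WT chow libraries. The diet difference in WT was 2.08 without that library. In contrast to the ratio on high fat diet, the bone-forming sum alone rested on WT high fat replicate 3, since its log2 difference between the genotypes on high fat diet was -1.27 with it and -0.59 without it, and its diet difference in WT 1.01 with it and 0.33 without it.

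**Figure D5:**
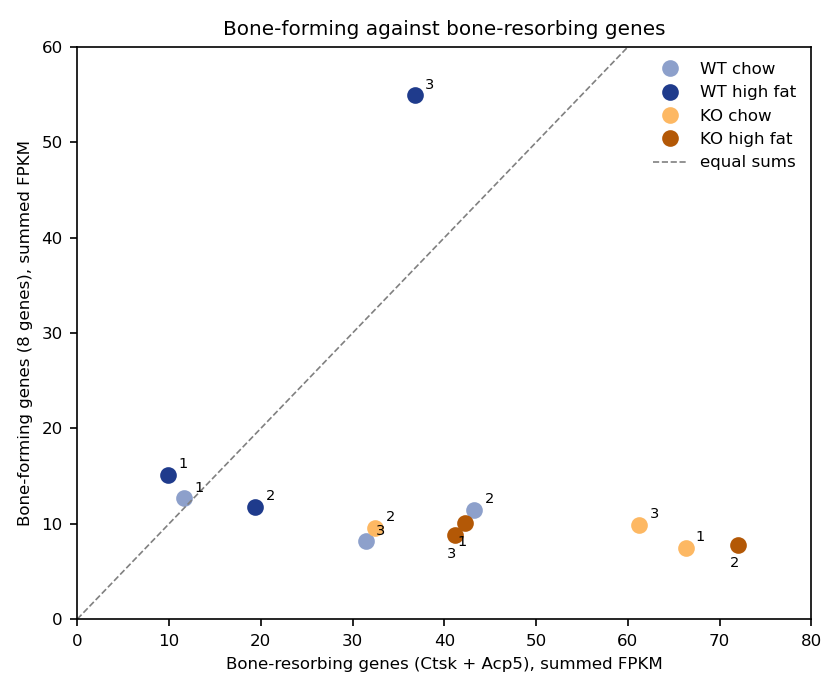
Summed FPKM of the 8 bone-forming genes (vertical axis) against summed FPKM of Ctsk and Acp5 (horizontal axis), both linear, with 1 point per library coloured by group and numbered by replicate; the dashed line marks equal sums. The 6 KO points lie far under the line, and WT high fat replicate 3 stands alone at 54.9 FPKM on the vertical axis.

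Without Alpl the comparison of the sets changed. The sum of the other 7 bone-forming genes was 0.741 to 1.05 FPKM in WT chow, 0.980, 1.21 and 43.5 FPKM in WT high fat, 1.47 to 1.89 FPKM in KO chow and 1.36 to 2.23 FPKM in KO high fat. Apart from WT high fat replicate 3, every KO library lay above every WT library, most of it Dmp1. The log2 ratio to the bone-resorbing sum then differed between the genotypes on normal chow by -0.20 instead of -1.26, and the genotype difference on high fat diet was -2.37. That value rested on WT high fat replicate 3, and without this library it was -1.11.

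Over the 12 libraries, the 4 tested genes correlated pairwise as follows, as a description of libraries that share groups. Pearson's r on the log2(FPKM + 1) scale was -0.72 for Alpl with Acp5, -0.69 for Alpl with Ctsk and -0.55 for Alpl with Dmp1. It was 0.66 for Dmp1 with Ctsk, 0.53 for Dmp1 with Acp5 and 0.42 for Ctsk with Acp5. The 2 bone-resorbing genes were therefore less alike over the libraries than Ctsk was to the bone-forming gene Dmp1, a difference that was not tested.

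The genes most like each bone gene, out of all tested genes and over the same 12 libraries, were other genes for Acp5 than for Ctsk. For Acp5 they were Cebpa (r = 0.98), a transcription factor of fat and myeloid cells, Cdo1 (r = 0.98), which encodes cysteine dioxygenase, and Prkar2b (r = 0.98), a regulatory subunit of protein kinase A. For Ctsk they were Ckb (r = 0.96), the brain-type creatine kinase, Spryd3 (r = 0.95) and BC022687 (r = 0.95).

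Because Cebpa is abundant in fat cells, fat cell genes were read after the values had been seen. Acp5 correlated with the adipokine Adipoq (r = 0.96), the lipid droplet coat gene Plin1 (r = 0.97), the fatty acid carrier Fabp4 (r = 0.91) and Cfd (r = 0.89), and less closely with the macrophage genes Cd68 (r = 0.70), Csf1r (r = 0.79), Emr1 (r = 0.69) and Mrc1 (r = 0.82). Ctsk correlated with Cd68 (r = 0.84) and Emr1 (r = 0.81), with Csf1r (r = 0.58) and Mrc1 (r = 0.52), and with Fabp4 (r = 0.50), Plin1 (r = 0.47), Adipoq (r = 0.44) and Cfd (r = 0.04). Among the macrophage genes read here, Cd68 and Emr1 were thus nearer to Ctsk than to Acp5, whereas Csf1r and Mrc1 were nearer to Acp5. Other genes of the macrophage list were not read in this way. Adipoq was lowest in WT high fat replicate 1 (1.40 FPKM), where Acp5 was also lowest, and highest in KO chow replicate 1 (223.6 FPKM), where Acp5 was also highest. The part of fat in the Acp5 values was not tested.

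For Dmp1 the most alike genes were Sln (r = 0.96), which encodes sarcolipin, a muscle inhibitor of the calcium pump, Capn2 (r = 0.92), a calpain protease, and Slc25a24 (r = 0.92), a mitochondrial carrier. Sln lay between 4.56 and 58.9 FPKM in WT and between 32.4 and 253.6 FPKM in KO. For Alpl they were Ppp3cc (r = 0.95), a catalytic subunit of calcineurin, Dnajc28 (r = 0.95) and Car2 (r = 0.94). Car2 encodes the carbonic anhydrase that supplies acid in osteoclasts, and it lay between 9.76 and 21.5 FPKM in WT and between 7.57 and 11.5 FPKM in KO, with a fitted difference averaged over the diets of -0.67 (adjusted p = 0.0508, limma).

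Macrophage genes differed between the genotypes alongside Ctsk and Acp5. The list of 20 genes, 19 of them in the files, summed to between 366.3 and 651.4 FPKM in WT and to between 601.2 and 1010 FPKM in KO. The highest sum was in KO high fat replicate 2, where Ctsk was also highest. Lpl was the largest term of the sum in every library, at 170.7 to 233.6 FPKM in WT and 225.1 to 319.4 FPKM in KO. Of the 18 tested genes of the list, 18 were fitted higher in KO on high fat diet with a median log2 difference of 1.16, against -0.01 over all tested genes, and none passed the adjusted threshold there. In the averaged genotype effect 1 of the 18 passed, against 0.862% of all tested genes, a count of 103 genes that ranged from 10 to 1200 when 1 library was left out. This gene was Emr1 (F4/80, a macrophage surface receptor), with a difference of 0.89 (adjusted p = 0.0418). Mmp12, among the 18, reached the filter only with its KO high fat libraries. Its direction therefore adds no support to the count on high fat diet. The part of macrophages in the Ctsk and Acp5 values was not tested.

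The wider osteoclast list had 30 further genes, of which 28 were in the files and 20 were tested. None passed the adjusted threshold in any of the 6 comparisons (limma), whereas before adjustment 10 were higher and 4 lower in KO on high fat diet, 14 of 20 against 16.2% of all tested genes. Their median difference there was 0.25, against -0.01 over all tested genes, and on normal chow it was 0.13, against -0.03. The most abundant were the protease Ctsb (117.2 to 138.3 FPKM in WT and 129.8 to 198.5 FPKM in KO), the adaptor Tyrobp (13.5 to 26.0 and 20.2 to 55.1 FPKM), Fos (5.51 to 79.9 and 4.47 to 60.5 FPKM) and the macrophage growth factor receptor Csf1r (4.22 to 16.2 and 14.6 to 28.9 FPKM). Csf1r and several others on this list are also macrophage genes. Atp6v0d2, among the 10 that were higher in KO on high fat diet, reached the filter through the KO high fat libraries. It therefore adds no support to that count.

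Genes that define the osteoclast more narrowly, named here after their values were seen, were low. The osteoclast receptor Oscar reached 0.117 FPKM, the fusion gene Ocstamp 0.225 FPKM, Siglec15 0.137 FPKM and the calcitonin receptor Calcr 0.361 FPKM at most, and none of these stood apart in a group. Dcstamp, which is needed for precursors to fuse, was 0.690, 0.861 and 0.950 FPKM in KO high fat and at most 0.355 FPKM in the other 9 libraries. Atp6v0d2, a proton pump subunit of osteoclasts and some macrophages, was 1.92, 3.87 and 3.59 FPKM in KO high fat and at most 1.15 FPKM elsewhere. Trem2, a receptor of macrophages and osteoclasts, was 8.26, 13.4 and 7.75 FPKM in KO high fat and at most 3.53 FPKM elsewhere.

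Ctsb of the osteoclast list also had this order, at 161.1, 198.5 and 166.8 FPKM in KO high fat and at most 149.8 FPKM elsewhere. Its fitted diet difference in KO was 0.32 (adjusted p = 0.426, limma). Other genes of the list did not share the order. The matrix protease Mmp9 was 1.07, 1.11 and 0.873 FPKM in KO high fat and 3.95, 2.24 and 2.33 FPKM in KO chow, and the fitted diet difference in KO was -0.90 for Mmp9, -0.49 for Snx10, -0.31 for Itgb3 and -0.21 for Car2 (adjusted p between 0.431 and 0.636, limma). Over the 20 tested genes of the list, 10 were fitted higher and 10 lower for diet in KO, with a median of 0.04 against 0.03 over all tested genes. No separate test is given for Dcstamp, which did not reach the filter. The same holds for Atp6v0d2, which reached it through the KO high fat libraries and is among the 10 fitted higher.

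Some macrophage genes, also named after their values were seen, had the same order as Dcstamp, Atp6v0d2 and Trem2. Mmp12, a macrophage elastase, lay between 6.28 and 9.91 FPKM in KO high fat and at most at 4.18 FPKM elsewhere. Gpnmb lay between 12.2 and 19.3 FPKM against at most 6.66 FPKM, and Lgals3 (galectin-3) between 40.02 and 65.0 FPKM against at most 24.8 FPKM. For each of these 6 genes the highest library outside KO high fat was WT high fat replicate 3. Ctsk had this order by a small margin, with a lowest KO high fat value of 19.0 FPKM against 17.6 FPKM in WT high fat replicate 3, whereas the KO high fat values of Acp5 lay within the range of the other groups. Cd68, Emr1 and Lgmn of the macrophage list also had this order, but their highest library outside KO high fat was KO chow replicate 1. Mrc1, Cd163, Cd14 and Lpl did not, and were highest in KO chow. Over the 18 tested genes of the list, 10 were fitted higher and 8 lower for diet in KO. Their median was 0.05, against 0.03 over all tested genes. Mmp12, among the 10, reached the filter only with its KO high fat libraries. The part of macrophages in these values was not tested.

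The wider osteoblast and osteocyte list had 23 tested genes. None passed the adjusted threshold in the 5 planned comparisons (limma). The median difference was 0.28 for diet in WT and 0.11 for diet in KO, against -0.01 and 0.03 over all tested genes, and before adjustment 8 of 23 were higher and 0 lower for diet in WT, against 8.12% of all tested genes in either direction. Wif1, among the 8, reached the filter through 3 WT high fat libraries and 1 WT chow library, so it adds no support to that count. The most abundant members of the list are matrix genes that fibroblasts also make, Sparc (182.2 to 394.1 FPKM in WT and 238.4 to 461.6 FPKM in KO), Col1a2 (64.8 to 191.0 and 123.7 to 211.7 FPKM), Col1a1 (33.9 to 146.2 and 79.6 to 162.2 FPKM) and Mgp (49.0 to 132.7 and 62.4 to 143.8 FPKM). The averaged genotype effect called 1 of the 23, Smpd3, a sphingomyelinase needed for normal bone mineralization (difference 0.70, adjusted p = 0.0418), against 0.862% of all tested genes. Smpd3 lay between 0.124 and 0.936 FPKM in WT and between 0.953 and 1.95 FPKM in KO. It reached the filter through 5 KO libraries and no WT library, so the call cannot be read as support for a higher level in KO.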

How the data were processed

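Total RNA libraries of hind limb muscle were made with the Illumina TruSeq kit. The authors deposited 1 FPKM value per gene symbol and library, without pooling replicates. Per the submitters' processing notes, TopHat2 2.0.8b, Cuffdiff 2.1.1 and build mm10 were used. The annotation, filters and strand setting are not given in the sources used here. The unit was read from the values, and reads per library are unknown.

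Of 23179 rows, symbols listed more than once kept the row with the highest mean, leaving 22923. Values were taken to log2(FPKM + 1). Genes with at least 1 FPKM in at least 3 libraries entered a limma fit (limma 3.58.1, R 4.3.3) of 4 group means with a trend in the variance and 8 residual degrees of freedom, two-sided, with Benjamini-Hochberg adjustment over all 11945 genes and a threshold of 0.05. The script was tested on simulated data. Replicates are 3 samples per group that the methods call independent. The labels do not say more about the animals, so p-values measure the spread between these samples.

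The 10 genes and the gene lists were chosen with earlier results of these data known. Named besides them were the 4 most abundant genes of the osteoblast and osteoclast lists, list genes past the threshold, the 3 genes most correlated with each tested member, and those stated to have been chosen later. For the sums, 0.1 FPKM was added to each before the log2 ratio. Positions are from GENCODE M21 (GRCm38, the same assembly as mm10) and promoters from RefSeq GRCm38.p6. Sums and figures were made in Python 3.11.15 with NumPy 2.4.6, pandas 2.3.3 and Matplotlib 3.10.9.

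Alternatives were a pseudocount of 0.1, no filter, a fit of the compared groups alone, genotype by label, a block for replicate number, each library left out in turn, a mean of log2 values in place of the sum, and the bone-forming sum without Alpl. Median-of-ratios scaling, quantile normalization and the averaged genotype effect were added after the data were seen. The result with a mean of log2 values in place of the sum is not given here.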

Additional observations from a re-analysis of the deposited data

How the results depend on the processing

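Of 352 recomputed values of the 24 differences of Dmp1, Alpl, Ctsk and Acp5, 320 kept their direction and their side of the threshold. Of the rest, 6 newly passed it and 26 turned sign. Those that newly passed include values of Dmp1, which add no support because of how it met the filter. Grouping by the genotype label turned most of these. It gave -0.42 for Alpl and 0.14 for Acp5 in the diet effect in WT, and -0.27 for Dmp1 and 0.57 for Alpl in KO. It gave -0.61 (Dmp1), 0.61 (Alpl), -1.12 (Ctsk) and -1.24 (Acp5) for genotype on high fat diet, 0.99 (Alpl), -1.53 (Ctsk) and -1.92 (Acp5) for the interaction, and -0.16 (Dmp1), 0.11 (Alpl), -0.36 (Ctsk) and -0.28 (Acp5) for the averaged genotype effect. The log2 ratio of the sums became -1.04 for diet in WT, 2.01 for diet in KO and 2.19 for genotype on high fat diet, and 0 genes passed in the 4 comparisons that had called any.

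Leaving out 1 library turned the diet effect of Dmp1 in WT (-0.017 to 0.27, lowest without WT high fat replicate 3) and of Alpl in KO (-0.17 to 0.071, highest without KO high fat replicate 2), and the interaction of Dmp1 (-0.15 to 0.14) and Acp5 (-0.32 to 1.16). Quantile normalization also turned the Dmp1 interaction (0.0057). None of these differences was near the threshold. The log2 ratio ranged from 1.05 to 2.08 for diet in WT, from -0.30 to 0.39 for diet in KO, from -1.64 to -0.58 (without WT chow replicate 1) for genotype on normal chow and from -3.08 to -2.30 on high fat diet. Without Alpl it was 2.35 for diet in WT and -0.20 for genotype on normal chow. An alternative added after the data were seen left out WT high fat replicate 3 as well, and gave 1.08 for diet in WT and -1.11 for genotype on high fat diet. Of the bone genes, 0 to 2 passed for the averaged genotype effect with a library left out. With quantile normalization 1 passed (Alpl, adjusted p = 0.0482, limma). Where Dmp1 is among those that passed, it adds no support, for the reason given with the filter.

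Counts of all genes past the threshold depended on single libraries. They ranged from 1 (without WT chow replicate 1 or 2) to 32 (without WT high fat replicate 2) for diet in WT, from 0 to 4 (without KO chow replicate 2) for diet in KO, and from 4 to 14 (without WT chow replicate 3) for genotype on normal chow. They ranged from 4 (without KO high fat replicate 2) to 82 (without WT high fat replicate 3) for genotype on high fat diet, from 0 to 1 for the interaction, and from 10 (without WT chow replicate 1) to 1200 (without KO chow replicate 2) for the averaged effect. Without a filter 6, 24, 1 and 42 genes passed for diet in KO, genotype on high fat diet, the interaction and the averaged effect. With only the groups compared, 3, 7, 4 and 8 passed for diet in WT, diet in KO, and genotype on chow and on high fat diet. Quantile normalization gave 9 for diet in KO, 26 for genotype on high fat diet and 200 for the averaged effect. The cause of these shifts was not tested.

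Blocking on replicate number, 7 genes passed for diet in WT, 4 and 5 for genotype on chow and on high fat diet, and 40 for the averaged effect, and no bone gene did. Same-numbered samples showed no consistent shared deviation. The correlations of their deviations ran from -0.81 to 0.39, and no comparison had all 3 above 0.1. With 3 samples per group this cannot exclude that the samples were paired. The low levels of 6 of the 10 genes limit what can be compared, because the number of reads behind an FPKM under 1 is not known.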
